A study of Mus musculus with 16 samples.

Results

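The collagen gene family was followed through the development of the mouse epididymis. Its members are all probe sets of the array whose annotated gene symbol has the form Col, number, a, number, with the brightest probe set of each gene over the 15 epididymis arrays standing for the gene. The rule found 42 genes among the 18193 genes with 1 symbol, measured by 82 probe sets, and 27 of the 42 genes had several. Of the 42, 11 are fibrillar collagens, 6 are basement membrane chains, 5 are beaded filament chains, 9 are FACITs (collagens that attach to fibrils and have interrupted helices) and 11 are of other types. A working list of 36 members left out Col6a4, Col6a5, Col20a1, Col22a1, Col24a1 and Col26a1, which meet the same rule and are included here.

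RNA came from whole excised epididymides of wild-type CD-1 males, an outbred stock, at 4 fetal ages, gestational days 12, 14, 16 and 18 (written gd12 to gd18), and at postnatal day 2 (pnd2). These are Theiler stages 20, 22, 24, 26 and 27 in the labels. Each of the 5 stages had 3 arrays, each array held both epididymides of 1 animal, and no dam gave more than 1 animal, so the 15 arrays are 15 separate animals. No treatment was given, and the design sets each stage against the one before it. A further array held RNA of whole newborns at postnatal day 0.5, pooled from 4 males and 4 females, and serves as a single outside reference with no stated strain. The value on each array is a signal intensity in arbitrary units. Because probe sets differ in brightness for reasons other than the amount of RNA, a gene is compared with itself between stages and never with another gene by level.

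Collagens are extracellular proteins whose chains wind around each other into a rigid helix, and the chains that may combine are fixed by type. Fibrillar collagens (types I, II, III, V, XI and their relatives) assemble into the fibres of connective tissue, type IV collagens form the sheet of the basement membrane under epithelia, type VI forms beaded filaments around cells, and FACITs coat the surface of fibrils. The epididymis is the coiled duct in which sperm mature. It forms from the Wolffian duct, an epithelial tube that lies on a basement membrane and is wrapped in mesenchyme, from which the connective tissue and smooth muscle of the duct wall arise.

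All 15 arrays were scaled to the same trimmed mean. The Gapdh control ratio, 3' over 5' signal, a gauge of RNA integrity, ran from 4.333 to 7.18 on 14 arrays and was 63.16 on the array of pnd2 replicate 3, where the median signal was 81.27 against 110.45 to 133.29, so counts are also given without it. The Leydig cell gene Cyp17a1 was at 949 on gd14 replicate 10 and 2211 on gd16 replicate 9, and at 7.53 to 302 on the other 13 arrays. With 3 animals per stage, the number of arrays limits the precision of every comparison. The epididymal epithelium markers measured (9 genes, among them Krt8, Krt18 and Pax2) summed to 7389 to 8777 at gd12 and 23452 to 26651 at pnd2. At gd12 the summed signal of 7 germ cell markers was 15356 to 23233, against 1067 to 1597 at gd14, and that of 9 gonad support markers was 4284 to 7543 against 1355 to 2451, so the gd12 organs held more RNA of these gonad genes. Per list, 6 of 7 germ cell and 5 of 9 gonad support genes fell from gd12 to gd14. The part of these cells in the collagen changes from gd12 was not tested. In bulk RNA, fewer cells of a type and less RNA per cell cannot be told apart.

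Most collagens that changed did so between gd12 and gd14, and they rose. Of the 42 genes, 20 were higher at gd14 and 4 were lower, where 4.11% of all genes tested were higher and 3.56% were lower (limma, Benjamini-Hochberg adjusted p under 0.05). Changes are on the scale of log2(signal + 16), which understates those of dim genes. The median log2 change was 0.59 over the 42 collagens and -0.001 over all genes. The largest rises were those of Col12a1 (14.9-fold), Col8a1 (11.9-fold) and Col6a1 (8.3-fold), and the falls were those of Col9a3 (16.7-fold), Col9a1, Col2a1 and Col18a1. Without pnd2 replicate 3 the counts of collagens were the same, while 9.58% of all genes were then higher and 8.93% lower. The counts were 19 higher and 4 lower without the arrays of gd14 replicate 10, gd16 replicate 9 and pnd2 replicate 3.

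Few changes were called between neighbouring stages after gd14. Between gd14 and gd16, 0 of 42 were called by limma (8 had an unadjusted p under 0.05), where 0.033% of all genes were higher and 0.0275% lower. From gd16 to gd18, 0 were called (9 with an unadjusted p under 0.05), against 0.11% and 0.0495% of all genes. From gd18 to pnd2, Col8a1 was lower and no other was called (9 with an unadjusted p under 0.05), against 0.0989% of all genes higher and 0.126% lower. Few genes of any kind were called in these intervals. The median log2 change of the 42 was 0.253 to gd16, 0.227 to gd18 and -0.044 to pnd2, against -0.023, 0.014 and -0.058 over all genes. To gd16 and gd18, 13 and 11 of the 42 had all arrays above the stage before, against 1428 and 1850 of 18193 genes. All arrays lay below it in 6 and 3, against 1766 and 1303 of all genes. Without pnd2 replicate 3, Col5a1 was called higher at gd16, where 0.429% of all genes then were, and Col9a1 higher at gd18, where 0.704% were.

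Set against gd12 directly, 21 collagens were higher and 4 lower at gd18, against 7.89% and 6.55% of all genes, with a median log2 change of 1.235 over the 42 and -0.006 over all genes. At pnd2, 23 were higher and 5 lower, against 9.16% and 8.2% of all genes, with a median of 1.201 against -0.083. These comparisons share their gd12 arrays with each other. Without pnd2 replicate 3 the counts were 24 higher and 4 lower at gd18, against 13.4% and 13.3% of all genes, and 23 higher and 6 lower at pnd2, against 11.9% and 11% of all genes. Over the 5 stages together, 29 of 42 collagens changed (moderated F test), against 16.4% of all genes; without pnd2 replicate 3 it was 30, against 29.2%. Of the 21 that were higher at gd18 than at gd12, 18 had the largest of their 3 steps between gd12 and gd14. In Col5a3 it lay between gd14 and gd16, and in Col4a1 and Col4a4 between gd16 and gd18. In all 4 that were lower it lay between gd12 and gd14. The same count was not made over all genes, whose calls were also most numerous in that interval. Of 18193 genes, 1396 were called from gd12 to gd14, 11 from gd14 to gd16 and 29 from gd16 to gd18.

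**Figure D1:**
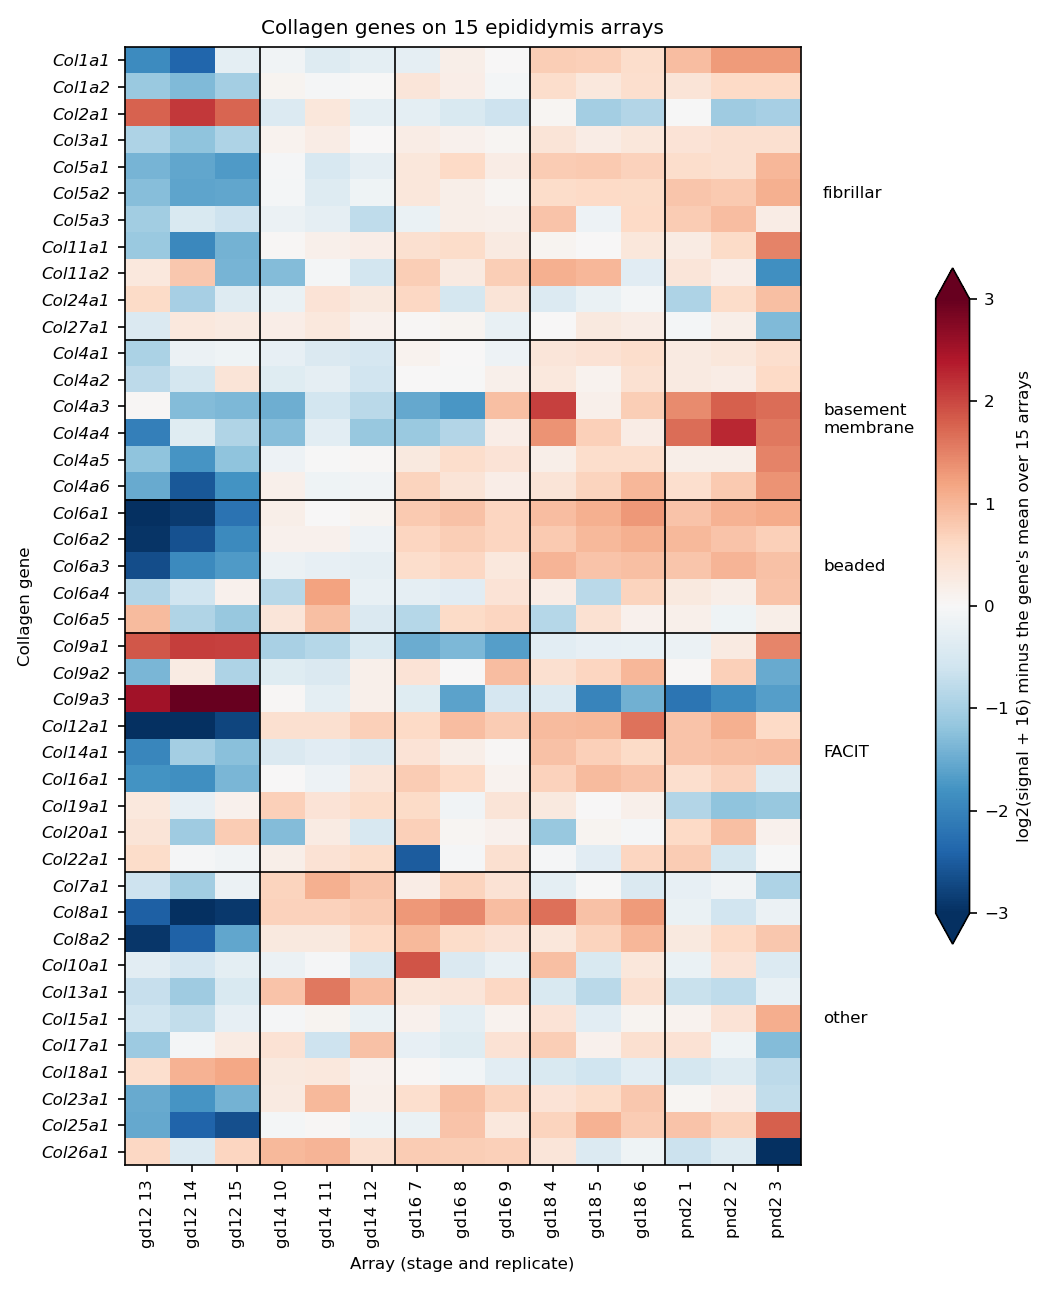
Heat map of the 42 collagen genes (rows, by type) on the 15 epididymis arrays (columns, by stage and replicate); colour is log2(signal + 16) minus the gene's mean over the 15 arrays, red above and blue below. Most genes of the fibrillar and beaded types are blue on the 3 gd12 arrays and near or above their mean from gd14 on, while Col2a1, Col9a1 and Col9a3 show the opposite order.

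Among the fibrillar collagens 6 of 11 rose from gd12 to gd14 and Col2a1 fell, and at gd18 and pnd2 against gd12 7 were higher and Col2a1 was lower. The type III chain Col3a1, of pliable connective tissue, gave signals of 20618, 16935 and 20536 at gd12 and 42387, 45384 and 39306 at gd14. The stages did not overlap, and the log2 change was 1.13 ± 0.12 (SE, adjusted p = 4.43e-05; n = 3 arrays per stage here and throughout). Col1a2, a chain of type I collagen, the main collagen of connective tissue, stood at 15515, 13357 and 16416 and then 35332, 32649.98 and 33368, again without overlap (1.17 ± 0.14, adjusted p = 9.39e-05). Later stages stayed above the gd12 range, at 40475 to 54914 for Col3a1 and 32081 to 50828 for Col1a2.

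Col1a1, the other type I chain, varied widely among the gd12 animals. Its signals were 1676, 1179 and 5109 at gd12, 5774, 4767 and 5111 at gd14, 5156, 7058 and 6338 at gd16, 10365, 10184 and 8999 at gd18 and 11919, 15075 and 15070.3 at pnd2. The third gd12 array, replicate 15, lay inside the gd14 range. The log2 change of 1.26 ± 0.36 to gd14 had an adjusted p of 0.0436. The call was lost with median centring (0.0642), with no intensity trend in the fit (0.084), with the 6 arrays of the 2 stages alone (0.078), and when any of 11 of the 15 arrays was left out (adjusted p 0.0575 to 0.211). Without gd12 replicate 15 the change was 1.88 (adjusted p = 6.36e-05). A second, dimmer probe set of Col1a1 gave 210.2, 157 and 332 at gd12 and 1321, 1059 and 1197 at gd14, with no overlap. By gd18 the change from gd12 was 2.17 ± 0.36 (adjusted p = 0.000667), and the 3 arrays of gd18 lay above all of gd12, gd14 and gd16.

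Of the type V chains, which lie inside type I fibrils and govern their width, Col5a1 and Col5a2 rose by gd14 and Col5a3 later. Signals of Col5a2 were 5420.01, 4356 and 4464 at gd12, 12601, 9995 and 12007 at gd14, 16666, 14665 and 13545 at gd16, 19063, 19800.3 and 19539.6 at gd18 and 23368, 22403 and 27431 at pnd2. No stage overlapped the one before it, yet among the steps between neighbouring stages only that to gd14 was called (1.28 ± 0.14, adjusted p = 5.03e-05). Col5a1 went from 2344, 2077 and 1888 at gd12 to 6036, 4372 and 5122 at gd14 (1.29 ± 0.17, adjusted p = 0.000206) and 10474, 10562 and 10007 at gd18. Its step from gd14 to gd16, 0.65 on the log2 scale, had an adjusted p of 0.281 with all arrays and 0.0235 without pnd2 replicate 3. Col5a3, the minor chain of type V, read 69.4, 113 and 99.5 at gd12, 139.5, 131 and 87.7 at gd14 and 303, 142 and 251 at gd18, with a log2 change of 1.14 ± 0.33 from gd12 to gd18 (adjusted p = 0.0287). That call was lost without gd12 replicate 13 or 15 or without gd18 replicate 4 or 6 (adjusted p 0.0578 to 0.131), while the call at pnd2 (1.34 ± 0.33, adjusted p = 0.00973) was kept with any array left out. With the mean of its probe sets neither was called (0.61 at gd18 and 0.78 at pnd2, adjusted p = 0.355 and 0.176).

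Col11a1, a type XI chain found inside thin fibrils and best known from cartilage, rose here while the cartilage collagen Col2a1 fell. It stood at 562, 311 and 453 at gd12 and 1267, 1376 and 1419 at gd14 (1.62 ± 0.27, adjusted p = 0.00141), and at 1242 to 1813 at gd16 and gd18. At pnd2 the arrays read 1464, 1828 and 3467, the highest of which is the array with the high 3' to 5' ratio. Its partner Col11a2 ran from 3.62 to 131 and reached the array median on 1 array. Col27a1 showed no called change (769 to 1312 over the fetal arrays), and its lowest value, 409.9, was again on pnd2 replicate 3. Col24a1 reached the array median on 1 array.

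**Figure D2:**
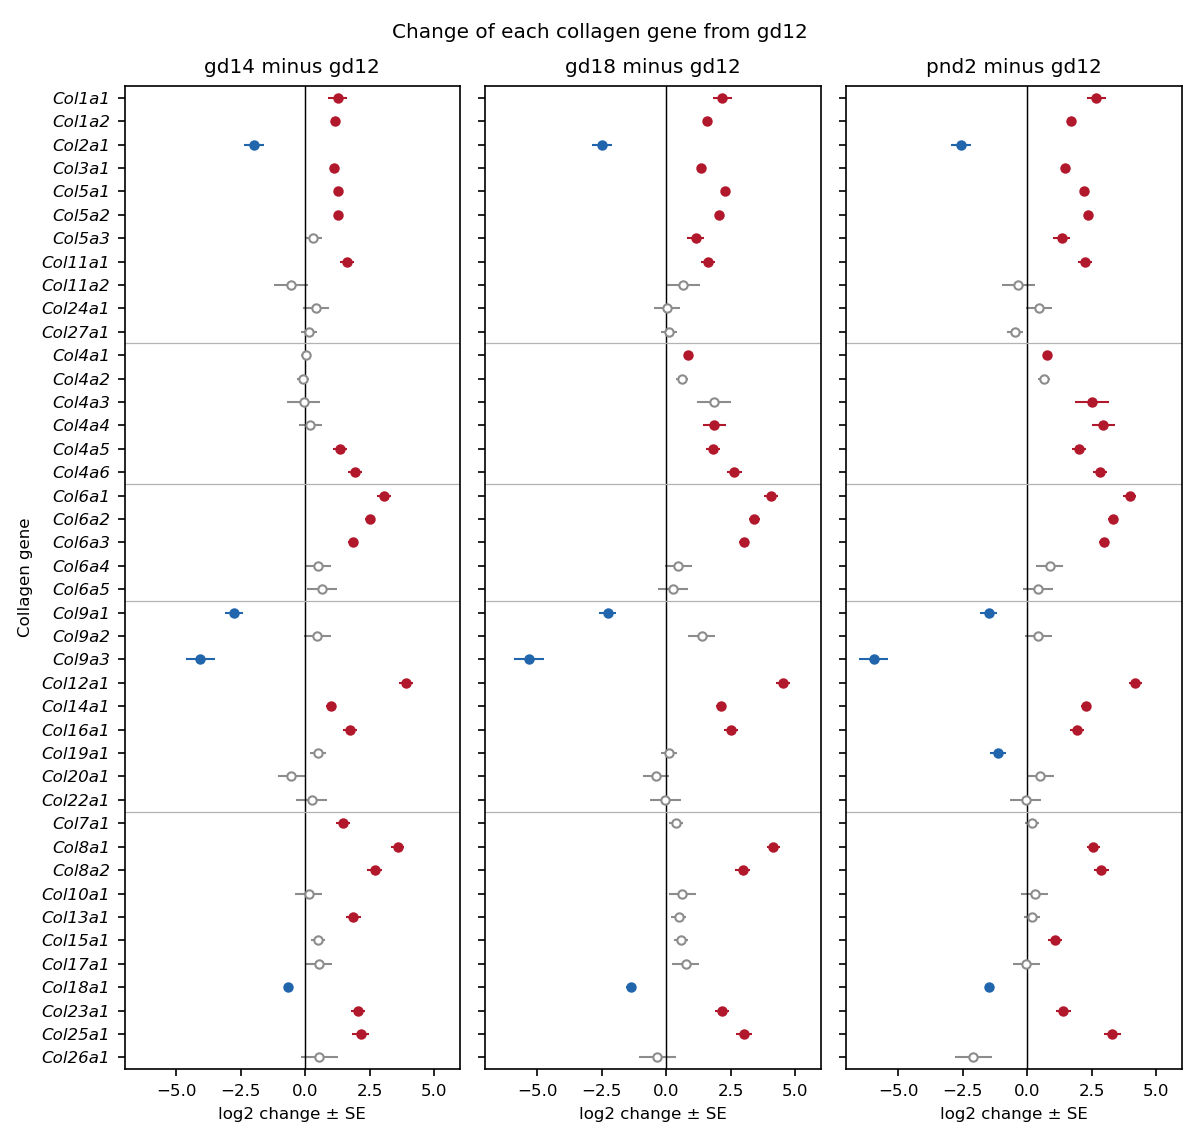
Log2 change of each collagen gene from gd12 to gd14, gd18 and pnd2 (points, with bars of 1 SE from the limma fit; 3 arrays per stage). Filled red points are called higher, filled blue points lower and open grey points not called at an adjusted p under 0.05; the counts are 20 and 4, 21 and 4, and 23 and 5 of 42, and the 3 panels share their gd12 arrays.

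The beaded filament collagens, type VI, changed mostly between gd12 and gd14. Of 5 chains measured, Col6a1, Col6a2 and Col6a3, which together make the classical type VI molecule that anchors cells to the surrounding matrix, rose, and Col6a4 and Col6a5 stayed below the array median on all 15 arrays. Col6a1 gave 774, 1468 and 2338 at gd12, 12268, 11064 and 11586 at gd14, 18796, 20045 and 17128 at gd16, 20685, 22818 and 26822 at gd18 and 19660.1, 22647 and 23698 at pnd2. The lowest gd14 array was thus far above the highest gd12 array (log2 change 3.05 ± 0.27, 8.3-fold, adjusted p = 8.69e-06). Col6a2 read 1739, 2198 and 3571 at gd12 and 14736, 14656 and 12096 at gd14 (2.52 ± 0.20), and 20848 to 27963 from gd16 on. Col6a3 read 1344, 2257 and 2643 at gd12 and 7611, 7191 and 7121 at gd14 (1.86 ± 0.19, adjusted p = 3.53e-05), and 17380.4, 15387 and 16055 at gd18. For Col6a1, Col6a2 and Col6a3 the gd16 arrays lay wholly above those of gd14, by 0.68, 0.64 and 0.72 on the log2 scale. None of these steps passed the test (limma, adjusted p 0.749, 0.481 and 0.322). Col6a4 and Col6a5 overlapped between these stages. Of all 18193 genes, 1428 had their gd16 arrays wholly above those of gd14.

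Col6a1 and Col6a2 are neighbours in the genome, and Col4a5 and Col4a6, chains of the basement membrane, lie head to head and rose in the same interval. The sequences just upstream of these 4 genes are shown. Both genes of each pair rose from gd12 to gd14, as did those of the neighbouring pair Col3a1 with Col5a2, which is not shown. The sequences are given 5′ to 3′ on the strand of each gene, from RefSeq on GRCm38.p6, trimmed to bases outside annotated genes. Capitals mark matches, on either strand, to a motif known as the Sp1 box, GGGCGG, and to a pyrimidine run, CCCTCCC, that can overlap itself.
Col6a1, chr10:76726045-76726294, minus strand: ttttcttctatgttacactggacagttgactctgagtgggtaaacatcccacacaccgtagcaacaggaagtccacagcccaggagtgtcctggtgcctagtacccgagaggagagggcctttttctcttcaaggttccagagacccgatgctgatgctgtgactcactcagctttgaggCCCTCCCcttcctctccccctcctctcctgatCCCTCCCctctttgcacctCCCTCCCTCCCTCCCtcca
Col6a2, chr10:76623631-76623880, minus strand: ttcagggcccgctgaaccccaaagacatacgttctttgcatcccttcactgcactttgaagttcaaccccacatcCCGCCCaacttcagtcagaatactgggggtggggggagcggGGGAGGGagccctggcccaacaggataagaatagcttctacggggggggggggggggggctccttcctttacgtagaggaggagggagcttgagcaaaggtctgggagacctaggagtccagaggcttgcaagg
Col4a5, chrX:141475169-141475369, plus strand: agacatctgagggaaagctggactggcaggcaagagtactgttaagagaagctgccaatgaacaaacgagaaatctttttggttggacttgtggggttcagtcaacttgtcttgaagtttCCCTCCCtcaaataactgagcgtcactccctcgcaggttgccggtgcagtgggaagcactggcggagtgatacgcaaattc
Col4a6, chrX:141474096-141474326, minus strand: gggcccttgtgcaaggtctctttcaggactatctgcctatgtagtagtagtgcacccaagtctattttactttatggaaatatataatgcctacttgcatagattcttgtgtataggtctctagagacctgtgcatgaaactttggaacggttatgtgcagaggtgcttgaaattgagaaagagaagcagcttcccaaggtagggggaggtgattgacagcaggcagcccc

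In these stretches Col6a1 had 5 CCCTCCC matches, some of which overlap, and 0 Sp1 boxes, Col6a2 had 1 of each, Col4a5 had 1 CCCTCCC match and Col4a6 had 0 of either. The 4 stretches are 250, 250, 201 and 231 bases long. Over 32851 promoter windows of 250 bases before a start, GGGCGG was found on either strand in 32.7% and CCCTCCC in 19.7%. Of 36 windows of the 33 collagen genes with one, 21 (58.3%) held GGGCGG and 17 (47.2%) held CCCTCCC. The motifs CCAAT and TATAAA were in 36.1% and 13.9% of collagen windows, against 33.8% and 12.4% of all windows. A match is a description of these letters, and factor binding was not measured. In gene order, 7 pairs of collagen genes lie next to each other: Col3a1 with Col5a2, Col9a1 with Col19a1, Col6a1 with Col6a2, Col6a4 with Col6a5, and the type IV pairs Col4a1 with Col4a2, Col4a3 with Col4a4 and Col4a5 with Col4a6, of which the spans of 2 (Col4a1 with Col4a2, Col4a3 with Col4a4) overlap.

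Basement membrane chains followed several time courses. From gd12 to gd14 2 of 6 rose, Col4a5 and Col4a6, at gd18 4 were higher than at gd12, and at pnd2 5 were. Col4a1 and Col4a2 make the type IV network found under nearly all epithelia and vessels, Col4a3, Col4a4 and Col4a5 make the network best known from the kidney glomerulus, and Col4a5 with Col4a6 makes a network found around smooth muscle and some epithelia, the epididymis among them. Col4a6 stood at 288, 133 and 234 at gd12 and 957, 781 and 799 at gd14 (1.94 ± 0.28, adjusted p = 0.000389), and at 988 to 2185 later. Col4a5 stood at 2684, 1836 and 2695 at gd12 and 5659, 6205 and 6471 at gd14 (1.36 ± 0.28, adjusted p = 0.00597). At pnd2 it read 7062, 7042 and 17496, so the highest value of this gene is on the array with the high 3' to 5' ratio, and without that array the change from gd12 to pnd2 was 1.57 in place of 2.00.

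Col4a3 and Col4a4, by contrast, were low until gd16. Col4a4 read 118, 417 and 279.6 at gd12, 212, 428 and 238 at gd14, 238, 285 and 619.7 at gd16, 1400.04, 898 and 628 at gd18 and 1748, 2639 and 1650.1 at pnd2, so that the pnd2 arrays lay above those of all earlier stages. Its log2 change from gd12 was 0.19 ± 0.45 at gd14 (adjusted p = 0.886), 1.87 ± 0.45 at gd18 (adjusted p = 0.0101) and 2.94 ± 0.45 at pnd2 (adjusted p = 0.000258). The gd18 call was lost without gd12 replicate 13 or gd18 replicate 4 (adjusted p 0.0515 and 0.0567). Col4a3 was dimmer, at 9.80 to 56.9 over gd12 and gd14, 8.45, 5.36 and 117 at gd16 and 280, 62.7 and 104 at gd18. At pnd2 it read 175, 231 and 212 (2.51 ± 0.65 from gd12, adjusted p = 0.0143). This call was lost without gd12 replicate 14 or 15 (adjusted p 0.0598 and 0.0593). A second Col4a3 probe set, of like brightness, changed by 0.07 from gd12 to gd18 and by 1.18 to pnd2, against 1.86 and 2.51. Its gd12 arrays (120, 39.1 and 7.13) overlapped those of pnd2 (113, 199 and 56.9). Of 7 nephron and glomerulus markers 0 were called by limma from gd12 to gd14 or gd18 (1 at each with an unadjusted p under 0.05), and Cubn was lower at pnd2. These counts lie near the shares of all genes, 4.11%, 7.89% and 9.16% higher and 3.56%, 6.55% and 8.2% lower at gd14, gd18 and pnd2. The podocyte marker Nphs1 ran from 4.66 to 119.

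The common chains moved less. Col4a1 read 6661, 11416 and 11812 at gd12, 10754, 9434 and 9089.99 at gd14 and 16646, 17345 and 18533 at gd18, with a change of 0.86 ± 0.18 from gd12 to gd18 (adjusted p = 0.00525). Col4a2 ran from 1419, 1701 and 3194 at gd12 to 3049, 2619 and 3378 at gd18, with overlap from the third gd12 array, and its 0.60 ± 0.24 had an adjusted p of 0.114, or 0.0437 without pnd2 replicate 3. Endothelium, a major source of both, had 0 of 8 markers called by limma from gd12 to gd14, gd18 or pnd2 (0, 0 and 1 with an unadjusted p under 0.05). Of all genes, 4.11%, 7.89% and 9.16% were higher and 3.56%, 6.55% and 8.2% lower, so 0 of 8 lies near these shares. The part of endothelium in the changes of Col4a1 and Col4a2 was not tested.

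**Figure D3:**
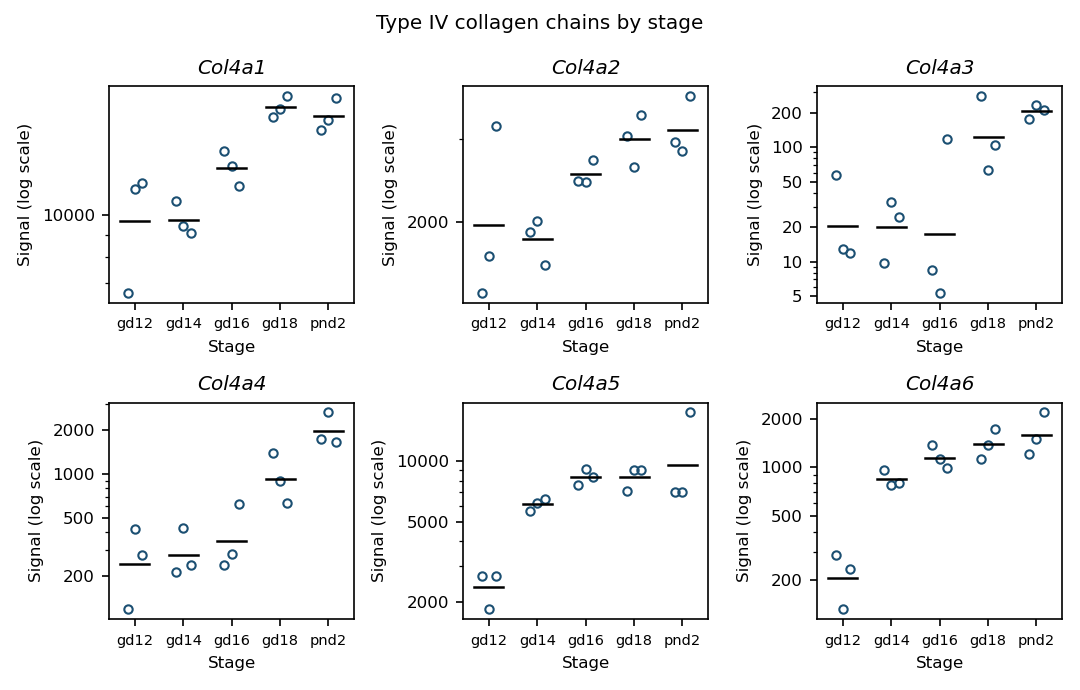
Signal of the 6 type IV collagen genes by stage (log axis; open circles are single animals, 3 per stage, and bars are geometric means). Col4a5 and Col4a6 step up between gd12 and gd14, whereas the gd14 arrays of Col4a3 and Col4a4 overlap those of gd12 and their highest stage mean is at pnd2.

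Of 9 FACITs, 3 rose and 2 fell from gd12 to gd14. Col12a1, which bridges fibrils in tissues under tension and in fasciae, showed the largest rise of the family. Its signals were 199, 132 and 312 at gd12, 3088, 3058 and 3610.3 at gd14, 3346, 4187 and 3712 at gd16, 4250.2, 4315 and 6825 at gd18 and 4018, 4614 and 3361 at pnd2. From gd14 on, no array lay below 3058, while the highest gd12 array was at 312 (log2 change to gd14 3.90 ± 0.26, adjusted p = 5.04e-07). The related Col14a1, also a fibril-surface collagen, rose from 1307, 2517 and 2152 at gd12 to 3764, 4031 and 3812 at gd14 (1.004 ± 0.20, adjusted p = 0.00444) and 9502, 8383 and 7639.9 at gd18 (2.13 ± 0.20 from gd12). Taken as the mean of its 3 probe sets, the change of Col14a1 to gd14 was 0.57 and was not called (adjusted p = 0.222). Col16a1, found at fibril surfaces and near basement membranes, stood at 472, 459 and 641 at gd12, 1695, 1501 and 2168 at gd14 and 2725, 3282 and 3058 at gd18, with no overlap between them (1.74 ± 0.26 to gd14).

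Of the 11 collagens of other types, 6 rose to gd14 and Col18a1 fell. The short-chain type VIII collagens form the open lattices of vessel walls and of the membrane behind the cornea. Col8a1 read 75.5, 36.2 and 51.0 at gd12, 788, 787 and 828 at gd14, 1215, 1339 and 934 at gd16, 1549, 908 and 1196 at gd18 and 421, 318 and 428 at pnd2. It thus rose 11.9-fold to gd14 (3.58 ± 0.25, adjusted p = 7.96e-07) and fell after gd18, by 1.59 on the log2 scale (SE 0.25, adjusted p = 0.0189), all 3 pnd2 arrays lying below all of gd18 and above all of gd12. The call from gd18 to pnd2 was lost without gd18 replicate 4 or 6 (adjusted p 0.111 and 0.127), with the mean of its 3 probe sets (0.169) and with median centring (0.0599), which by itself moved the median of all genes in that interval from -0.058 to 0.190. Col8a2 rose alike at first, from 99.2, 147 and 282 to 1062, 1049 and 1297 (2.69 ± 0.29), and was at 1062, 1302 and 1522 at pnd2, with no call between gd18 and pnd2.

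Col7a1 and Col13a1 had their highest stage mean at gd14. Col7a1, the anchoring fibril that ties a basement membrane to the stroma, read 248, 182 and 345 at gd12, 634, 836 and 710.2 at gd14, 459.6, 632 and 534 at gd16, 315, 389.7 and 289 at gd18 and 329, 365 and 199.9 at pnd2. The transmembrane collagen Col13a1, a protein of cell junctions with the matrix, read 355, 268 and 417 at gd12, 1066, 1765 and 1129 at gd14, 738, 749 and 908 at gd16, 418, 326 and 813 at gd18 and 360.1, 338 and 495 at pnd2. Both rose to gd14 (1.47 ± 0.27 and 1.87 ± 0.31, adjusted p = 0.00299 and 0.00123) and neither was called against gd12 at gd18 or pnd2, where their arrays overlapped those of gd12. Their declines between neighbouring stages were not called (log2 -0.68 for Col7a1 from gd16 to gd18, adjusted p = 0.64).

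Col25a1 and Col23a1, other transmembrane collagens, were still called higher than at gd12 at pnd2 by their brightest probe sets. Col25a1, known from neurons and muscle innervation, read 399, 211 and 179.9 at gd12, 1152, 1218 and 1085 at gd14 (2.14 ± 0.33, adjusted p = 0.000675) and 2168, 1922 and 4172 at pnd2. The highest of these is on pnd2 replicate 3. A dimmer Col25a1 probe set changed by 0.66 from gd12 to pnd2, against 3.30 by the brightest. Its pnd2 arrays (49.39, 88.47 and 78.55) overlapped those of gd12 (51.02, 52.89 and 19.42). Its gd14 arrays (106.53, 86.76 and 88.45) lay above those of gd12. The nerve markers had 1 of 6 called higher to gd14, Stmn2, and 0 of 6 by limma at pnd2 (1 with an unadjusted p under 0.05). Of all genes, 4.11% were higher at gd14, and 9.16% were higher and 8.2% lower at pnd2. Col23a1, a related surface collagen, read 151, 124 and 163 at gd12, 562, 927 and 514 at gd14 (2.04 ± 0.28) and 482, 531 and 273 at pnd2, all above gd12. With the mean of its 3 probe sets its call at pnd2 was lost (0.56, adjusted p = 0.355). The multiplexin Col15a1, a basement membrane zone collagen, was called against gd12 at pnd2 and at no earlier stage. It went from 286, 255 and 370.1 at gd12 to 477, 591 and 947 at pnd2 (1.06 ± 0.27, adjusted p = 0.013), and the call was lost without gd12 replicate 14 (adjusted p = 0.0571). Col26a1, a short collagen first described in testis and ovary, had no called change, read 431 to 1199.5 on fetal arrays and was at 13.03 on pnd2 replicate 3 against 366 and 438 on the other pnd2 arrays. Without that array it was called lower at pnd2 than at gd12 (adjusted p = 0.0498).

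Col9a3, Col9a1, Col2a1 and Col18a1 fell from gd12 to gd14. Col9a3, a chain of the FACIT type IX that coats the type II fibrils of cartilage, read 597, 3149.6 and 2749 at gd12, 93.5, 71.8 and 103 at gd14, 67.7, 18.9 and 59.7 at gd16 and 7.38, 13.1 and 18.1 at pnd2. It was 16.7-fold lower at gd14 (-4.06 ± 0.57, adjusted p = 0.000337), and on the gd12 arrays it ranged from 597 to 3149.6. Col9a1 read 1001, 1168 and 1146 at gd12, 127, 139 and 187 at gd14 (-2.76 ± 0.33, adjusted p = 0.000105), 83.9, 94.3 and 73.7 at gd16, 208, 219 and 224 at gd18 and 231, 322 and 755 at pnd2. After its low at gd16 it was wholly higher at gd18, by 1.23 on the log2 scale, which was not called with all arrays (adjusted p = 0.271) and was called without pnd2 replicate 3 (adjusted p = 0.0122). A second bright probe set of Col9a1 did not show this later course: its changes were -0.84 to gd14, 0.03 from gd16 to gd18 and -0.87 from gd18 to pnd2. Col9a2, the remaining type IX chain, was not called and read 31.6, 130.00 and 49.1 at gd12 and 79.1, 74.2 and 121 at gd14. Col2a1, the fibrillar collagen of cartilage, was dim, at 153, 198 and 149.97 at gd12, above the array median there and on no later array, and 7.49 to 47.0 afterwards (-2.00 ± 0.39 to gd14, adjusted p = 0.00429).

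Some markers of gonad cells were also highest at gd12. Of 9 gonad support genes 5 were called lower at gd14, against 3.56% of all genes. Cyp17a1 was not highest at gd12, with 15.8, 131 and 111 there and 949, 302 and 218 at gd14. Dhh, a Sertoli cell signal, read 932, 3161 and 3129 at gd12 and 176, 219.6 and 187 at gd14. Sox9, a factor of both Sertoli cells and cartilage, read 1455, 874 and 1044 at gd12 and 338, 334 and 329 at gd14, and the Sertoli hormone Amh was near the bottom of the scale (5.28 to 32.8 at gd12). Of 10 cartilage markers, Sox5 was called lower at gd14 and the other 9 were not called; at gd18 Hapln1 was lower and Cnmd higher. The defining cartilage gene Acan was at 51.5, 124 and 113 at gd12 against 1005 in the newborn pool, and Matn1 was at 6.76, 39.5 and 15.8 against 1279.7. The summed signal of the 10 cartilage markers was 1445 to 2412 at gd12, 999.5 to 1348 at gd14 and 8010.5 in the newborn pool. The part of gonad cells in the falls of Col9a3, Col9a1 and Col2a1 was not tested.

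**Figure D4:**
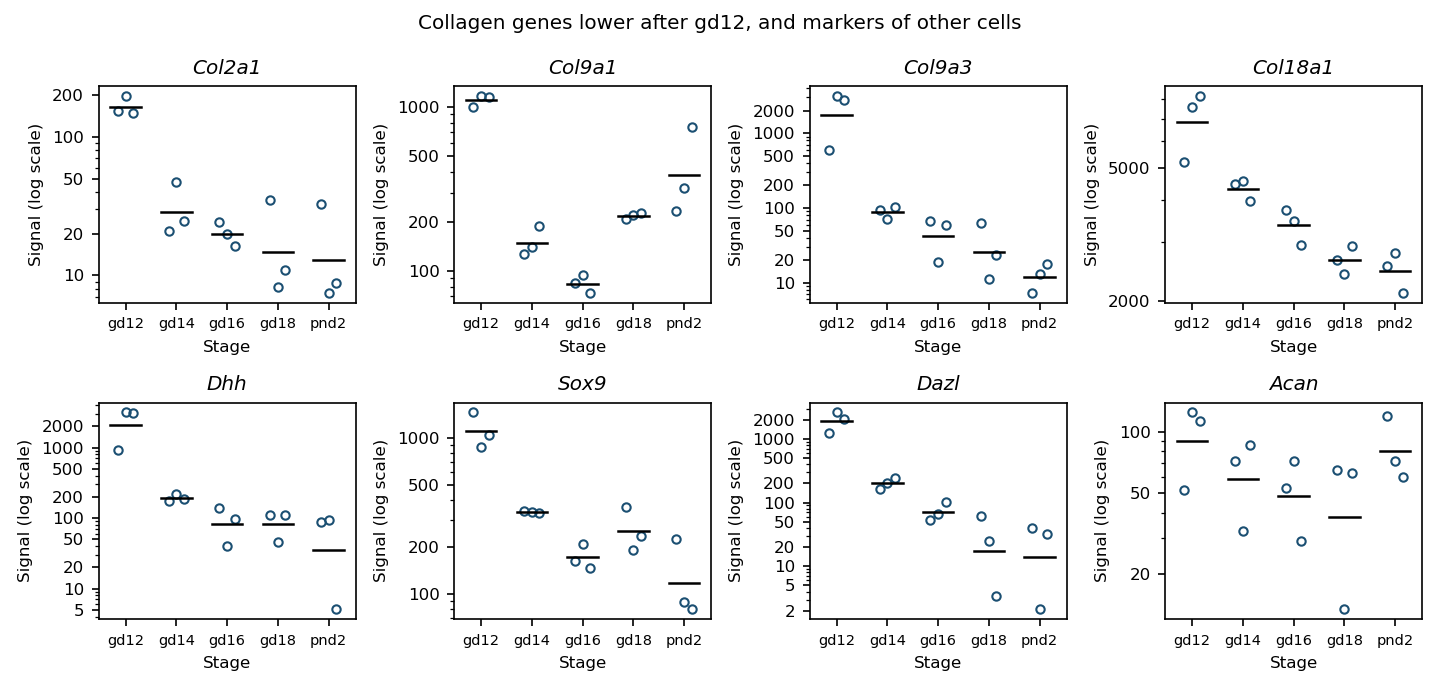
Signal by stage (log axis; open circles are single animals, bars geometric means) of 4 collagen genes that were lower after gd12 (upper row) and of the Sertoli cell genes Dhh and Sox9, the germ cell gene Dazl and the cartilage gene Acan (lower row). Dhh, Sox9 and Dazl have all 3 gd12 arrays above all later ones, as Col2a1, Col9a1, Col9a3 and Col18a1 do. Acan at gd12 overlaps later stages.

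Col18a1, the multiplexin of basement membranes whose tail releases endostatin, fell gradually by its brightest probe set. It read 5201, 7582 and 8181 at gd12, 4463, 4569 and 3978 at gd14, 3744, 3468 and 2937 at gd16, 2655, 2404 and 2911 at gd18 and 2539, 2787 and 2118 at pnd2. The change was -0.66 ± 0.18 to gd14 (adjusted p = 0.033), lost without gd12 replicate 14 or 15 or any gd14 array (adjusted p 0.0769 to 0.143), and -1.37 ± 0.18 to gd18 (adjusted p = 8.31e-05), kept with any array left out. A second bright Col18a1 probe set changed by -1.24 to gd14, then by -0.05, -0.24 and -0.23 to gd16, gd18 and pnd2. Its gd12 arrays (2932, 4172 and 4494) lay above those of gd14 (1657, 1790 and 1373). Col19a1, a FACIT of muscle and nerve tissue, was below the array median on all 15 arrays. It was called lower at pnd2 (16.9, 9.98 and 11.7) than at gd12 (58.9, 34.6 and 49.95), by -1.13 ± 0.31 (adjusted p = 0.0178). This call between dim values was lost without gd12 replicate 13 or 15 (adjusted p 0.0637 and 0.0527). The other probe sets of Col19a1, dim as well, did not show the fall, with log2 changes of -0.00 and -0.14 from gd12 to pnd2.

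Of the 42 members, 34 were at or above the array median on at least 3 of the 15 arrays. The median is a yardstick of brightness, not a detection call. Col6a4, Col6a5, Col10a1 (the collagen of hypertrophic cartilage), Col17a1 (the hemidesmosome collagen of skin), Col19a1 and Col20a1 never reached it, and Col11a2 and Col24a1 reached it on 1 array each. Col10a1 ran from 3.48 to 86.2 and Col17a1 from 3.34 to 71.4, against 163 and 712 in the newborn pool. The basal epithelial keratin Krt5 was at 18.9 to 151 on the epididymis arrays and 10496 in the pool. Of the 6 markers of basal skin epithelium, 0 were called by limma from gd12 to gd14 (2 with an unadjusted p under 0.05), and Krt14 was higher at gd18. Of all genes, 4.11% were higher and 3.56% lower at gd14, and 7.89% were higher at gd18. Col22a1, a FACIT of tissue junctions, passed the yardstick on 7 arrays without a called change.

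Chains that assemble together were compared over 14 pairs of partners or close relatives, as the log2 difference between the brightest probe sets of the 2 genes. The size of such a difference has no meaning, and its change over stages also depends on how each probe set responds. It was tested with an exact permutation test over all 1401400 ways to split 15 arrays into 5 stages of 3, taking deviations in either direction and adjusted over the 14 pairs. In 9 of 14 pairs the difference changed. The same test on 24 pairs of probe sets of 1 and the same gene, over 20 genes, found a change in 10, with shifts from -1.92 (Col9a1) to 1.42 (Col8a1) between gd12 and gd14. A change between 2 chains is therefore reported as one between probe sets. With every combination of probe sets at or above the array median on at least 3 arrays, taken by its largest p, 3 of the 14 pairs changed: Col15a1 with Col18a1, Col9a3 with Col9a2, and Col6a3 with Col6a1, which has a single combination.

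The brightest multiplexin probe sets moved towards each other from gd12 to gd18. Col15a1 minus Col18a1 was -4.44 ± 0.35 at gd12, -3.30 ± 0.05 at gd14, -2.91 ± 0.32 at gd16, -2.49 ± 0.30 at gd18 and -1.91 ± 0.67 at pnd2 (SD, n = 3; adjusted exact p = 0.000819, or 0.0104 with the other Col18a1 probe set). Without pnd2 replicate 3 the pnd2 mean was -2.29 (adjusted exact p = 0.000739). With the other Col18a1 probe set the stage means were -3.59, -1.87, -1.80, -1.48 and -0.77, with little change between gd14 and gd16. Among type IX chains, Col9a3 minus Col9a2 went from 4.51 ± 0.86 at gd12 to -2.17 ± 0.93 at gd18 (adjusted exact p = 0.00363, or 0.0176 with the other Col9a3 probe set). Both Col9a3 probe sets were at or above the array median on 3 arrays only, those of gd12. The second therefore entered through the stage where it was high and is no separate check of the fall. Col6a3 minus Col6a1 went from 0.53 ± 0.31 at gd12 to -0.67 ± 0.04 at gd14 (adjusted exact p = 0.0111), and neither gene has a second bright probe set to compare with.

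The other 6 pairs that changed did not pass with every combination. Col12a1 minus Col14a1 was -3.15 ± 0.83 at gd12, -0.25 ± 0.16 at gd14 and -1.26 ± 0.24 at pnd2 (adjusted exact p = 0.00326), and its shift from gd12 to gd14 was 1.72 to 3.34 over 4 combinations (adjusted exact p of the largest, 0.103). Col6a1 minus Col6a2 shifted by 0.54 in that interval (adjusted exact p = 0.0207) and by 0.66 with the other Col6a2 probe set (0.0932). Col9a1 minus Col9a2 shifted by -3.22 (0.0165) and by -1.30 with the other Col9a1 probe set (0.0996). Col4a5 minus Col4a6 went from 3.41 ± 0.24 at gd12 to 2.58 ± 0.18 at gd18 (adjusted exact p = 0.0485). With the other Col4a6 probe set that shift was -0.06, not -0.83 (unadjusted exact p over the stages = 0.793), so the ratio of these chains cannot be read. Col5a1 minus Col5a2 and Col8a1 minus Col8a2 passed with the brightest probe sets (0.0207 and 0.0485, adjusted exact p) and not with every combination (0.509 and 0.375). The Col8a1 pair had an adjusted exact p of 0.0876 without pnd2 replicate 3.

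For 5 pairs no change was shown by the brightest probe sets. They were Col4a1 with Col4a2 (adjusted exact p = 0.808), Col4a3 with Col4a4 (0.969), Col1a1 with Col1a2 (0.162), Col3a1 with Col1a1 (0.0921) and Col11a1 with Col11a2 (0.132). A p that misses the threshold does not show that the chains kept their ratio. For Col1a1, whose brightest probe set read high on gd12 replicate 15, the other probe set gave a shift of 1.17 against Col1a2 from gd12 to gd14, where the brightest gave 0.09 (unadjusted exact p over the stages 5.35e-05 and 0.138). Without pnd2 replicate 2 the count of pairs that changed by the brightest probe sets was 5.

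**Figure D5:**
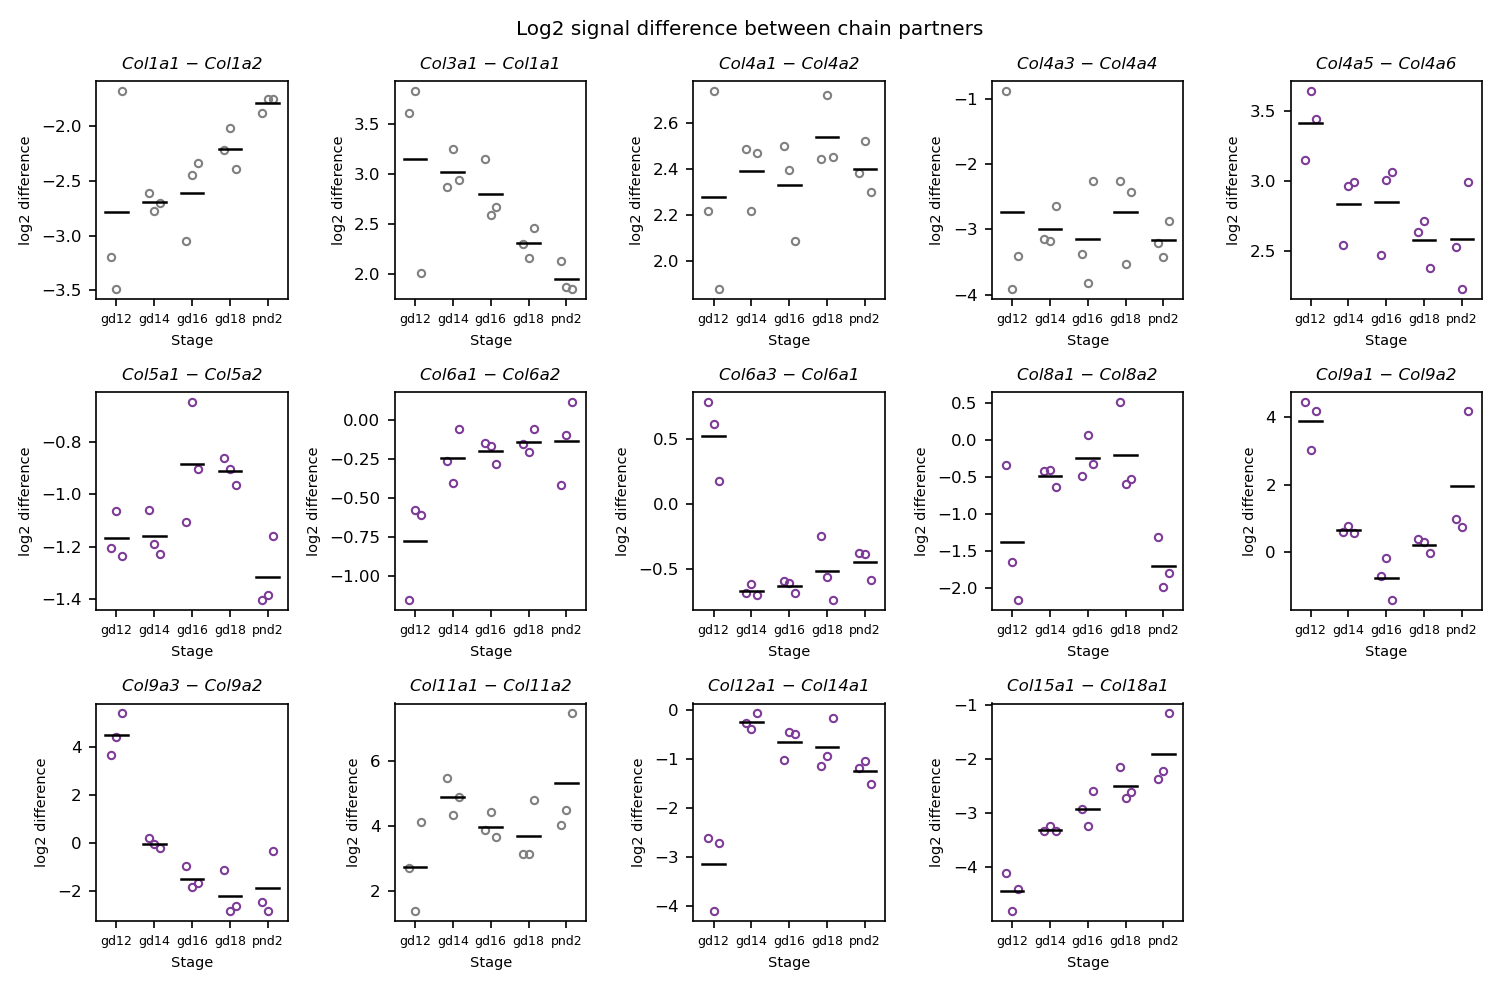
Difference in log2(signal + 16) between the brightest probe sets of 14 pairs of collagen chain partners or relatives by stage (open circles are single animals, 3 per stage; bars are means; purple for the 9 pairs with an adjusted exact p under 0.05, grey for the other 5). The axes differ between panels, only the change over stages within a panel can be read, and it also depends on the probe sets. The change of Col15a1 minus Col18a1 held with each Col18a1 probe set. Its mean climbs from stage to stage, and its pnd2 mean is -2.29 without replicate 3.

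Collagen chains are modified, folded, exported, trimmed and crosslinked by dedicated proteins, and 43 of 48 listed genes of this machinery and of collagen receptors were measured. From gd12 to gd14 9 of 43 rose and 0 fell, where 4.11% of all genes rose and 3.56% fell. Without pnd2 replicate 3, 19 rose and 1 fell (Pcolce2), where 9.58% and 8.93% of all genes did. At gd18 against gd12 17 were higher and 0 lower, against 7.89% and 6.55% of all genes (27 and 0 without that array, against 13.4% and 13.3%). At pnd2 9 were higher and 0 lower, against 9.16% and 8.2% (19 and 0 without that array, against 11.9% and 11%). The median log2 change was 0.429 at gd14, 0.634 at gd18 and 0.343 at pnd2. Leaving out that array raised the calls of these genes and of all genes in each of the 3 comparisons.

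Of 4 crosslinking enzymes, Lox and Loxl1 rose at each comparison with gd12. Lox, which crosslinks collagen and elastin, read 295, 369 and 458 at gd12, 2317, 1884 and 2066 at gd14, 5775, 4572 and 4218 at gd16 and 8549, 8869 and 8805 at gd18, with no overlap between successive stages (2.45 ± 0.22 to gd14, 4.51 ± 0.22 to gd18). Its values at pnd2, 6562, 7047 and 12277, were all above those of gd14. Loxl1, a relative needed for elastic fibres, read 449, 379.96 and 356 at gd12 and 1134, 1033 and 1016 at gd14 (1.40 ± 0.16). Of 10 genes of proline hydroxylation, which stabilises the collagen helix, 3 rose to gd14 (P4ha2, P3h3 and P3h2) and 7 were higher at gd18, among them P4ha2 (2.10 ± 0.33), P3h3 (1.34 ± 0.22) and P4ha1 (1.26 ± 0.38). At pnd2 2 were higher, P3h3 and Ppib. Without pnd2 replicate 3 the counts of this list were 5, 8 and 6 at gd14, gd18 and pnd2, where 9.58%, 13.4% and 11.9% of all genes were higher. P4ha2 went from 304, 231 and 238 at gd12 through 986, 1124 and 1364 at gd18 to 435, 679.7 and 197 at pnd2, the lowest of which is on that array.

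Of 9 chaperone and export genes 2 rose to gd14, Sec24d (0.93 ± 0.13), which helps pack procollagen for export, and Creb3l1 (0.999 ± 0.26), a transcription factor of secretory cells. At gd18 4 were higher, with Fkbp14 (1.23 ± 0.30) and Mia3 (0.50 ± 0.16) in addition. The collagen chaperone Serpinh1 was not called and stood at 9982 to 11637 at gd12, 12281 to 13750.5 at gd14 and 13245, 14760.5 and 2155 at pnd2. Of 6 propeptide processing genes, Adamts3 rose to gd14 (1.71 ± 0.35), and Pcolce, an enhancer of procollagen cleavage (1.16 ± 0.25), and Tll1, a procollagen protease (2.81 ± 0.52), were higher at gd18. Of 9 receptors, Ddr2, which binds fibrillar collagen, rose to gd14 (1.89 ± 0.39), and Ddr2 and the integrin Itga1 (1.36 ± 0.29) were higher at gd18. Of 5 genes of lysine hydroxylation and glycosylation 0 were called to gd14, gd18 or pnd2 by limma (0, 0 and 2 with an unadjusted p under 0.05). Without pnd2 replicate 3, the lysine list had 2, 3 and 0 higher and 0 lower at gd14, gd18 and pnd2. The chaperone and export list then had 5, 6 and 4 higher, the receptors 2, 4 and 4, and the propeptide list 2, 3 and 2, with Pcolce2 lower at gd14. Calls over all genes increased as well, to 9.58%, 13.4% and 11.9% higher at gd14, gd18 and pnd2, from 4.11%, 7.89% and 9.16%.

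Some markers of mesenchyme and smooth muscle rose in the same interval as the rising collagens. Against gd12, 4.11% of all genes were higher at gd14, 7.89% at gd18 and 9.16% at pnd2, and 3.56%, 6.55% and 8.2% were lower. Without pnd2 replicate 3 these shares were 9.58%, 13.4% and 11.9% higher and 8.93%, 13.3% and 11% lower. Of 10 fibroblast and mesenchyme genes 5 rose to gd14 and 0 fell (Dcn, Lum, Prrx1, Twist2 and Fn1), with a summed signal of 29744 to 33177 at gd12, 68483 to 76265 at gd14 and 80713 to 87987 at gd18. Dcn, a small proteoglycan that binds collagen fibrils, rose by 3.02 and Lum, another, by 3.07 on the log2 scale. Of 8 smooth muscle genes 2 rose to gd14, Acta2 and Tagln (4 without pnd2 replicate 3), and 6 were higher at gd18. Their summed signal was 2379 to 4731 at gd12, 7865 to 12170.1 at gd14, 20840 to 24675 at gd16 and 37723 to 39096 at gd18. The median log2 change of this list was 1.06 to gd14, 0.83 from gd14 to gd16 and 0.81 from gd16 to gd18. In these later intervals 0 of 8 were called by limma (2 and 3 with an unadjusted p under 0.05), where few genes of any kind were called. The median change of the 42 collagens was 0.253 and 0.227 there. Acta2, the smooth muscle actin, read 4009, 2019 and 1901 at gd12 and 9862, 6409 and 8849 at gd14. Of 9 epithelial genes 3 rose to gd14 (Krt8, Krt18 and Krt19) and 5 were higher at gd18, and the counts were 3 and 5 also without pnd2 replicate 3. Of 6 mesothelial genes Upk1b was higher at gd14 (3 higher and 1 lower without that array), 4 were higher and 1 lower at gd18, and 3 were higher and 2 lower at pnd2. Of 5 bone genes Sp7 was higher at gd14 and 0 were called by limma at gd18 or pnd2 (0 and 0 with an unadjusted p under 0.05). The part of these cells in the collagen changes was not tested. The skeletal muscle markers summed to 6317 on pnd2 replicate 2 and to 154.3 to 771.7 on the other 14 arrays, and 0 of 8 were called by limma from gd12 to pnd2 (1 with an unadjusted p under 0.05).

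Other probe sets of the same genes mostly gave the same direction. There were 24 other probe sets, for 20 of the 34 genes at or above the median on at least 3 arrays, that met the same yardstick. Where the gene was called, 20 of 20 had the same sign from gd12 to gd14, 23 of 23 to gd18 and 22 of 23 to pnd2, the exception being a probe set of Col23a1 at -0.10. The other Col9a3 probe set met the yardstick on 3 arrays, those of gd12, so a fall from gd12 was built into its choice. Probe sets below the yardstick are not in these counts. The sizes of the changes differed between probe sets of a gene. To gd14 the log2 change of Col1a1 was 1.26 by the brightest probe set and 2.33 by the other, and that of Col3a1 was 1.13 and 1.99. For Col12a1 a dimmer probe set gave 2.72 against 3.90, and for Col9a1 it gave -0.84 against -2.76.

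The pool of whole newborns, of nearly the age of the pnd2 animals, gave single values without replicates. The cartilage collagens were far higher in it than at pnd2: Col2a1 read 4146, Col9a1 5140.4 and Col9a3 1424. On the log2 scale the pool minus the pnd2 mean was 7.09 for Col2a1, 5.66 for Col9a3, 4.27 for Col17a1 and 2.76 for Col10a1. Collagens of connective tissue differed less, by -0.20 for Col1a2, -0.33 for Col5a2 and -0.47 for Col3a1. Lower in the pool were the specialised type IV chains, with differences of -4.67 for Col4a6, -3.69 for Col4a5, -3.03 for Col4a4 and -2.38 for Col4a3, while Col4a1 and Col4a2 differed by -0.29 and 0.34. Col4a5 read 726 in the pool and 7062, 7042 and 17496 at pnd2, and Col4a6 read 46.6 and 1210.5, 1488 and 2185. Col25a1 (-2.97) and Col8a2 (-1.95) were also lower in the pool, and Col8a1 (2.11) was higher.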

How the data were processed

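RNA from 15 pairs of epididymides and 1 newborn pool was labelled after 2 rounds of amplification, per the labels' protocols, and hybridised to 1-colour arrays. The deposited values are signal intensity on a linear scale, made with GCOS (Affymetrix scanner software) per the submitters' processing notes; neither version nor signal algorithm was stated there. In the deposited table each array had the same mean after trimming 2% at both ends, and no other normalization was seen. Of 45101 probe sets, 34945 carry 1 gene symbol in GEO's platform annotation, 932 several and 9160 none, with 64 controls left out, and the brightest probe set stood for each of 18193 genes. Values were taken as log2(signal + 16) and fitted with limma 3.58.1 in R 4.3.3, with 1 mean per stage over 15 arrays, an intensity trend, no filter on dim genes, and Benjamini-Hochberg adjustment over all genes within each comparison. A call is an adjusted p under 0.05. Chain pairs were tested by exact permutation in Python 3.11.15. Both scripts were tested on simulated data. Every collagen gene the rule finds may be named, and of other lists up to 4 called genes with the largest rise and fall. The members and lists were chosen with earlier results of these data known. Alternatives were quantile normalization, median centring, other constants, 2 filters, other probe set choices, other variance models, fewer arrays and a stricter threshold. No array carries a batch in the labels.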

Additional observations from a re-analysis of the deposited data

How the results depend on the processing

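The counts of collagens called from gd12 to gd14, gd18 or pnd2 and over the 5 stages stayed within 1.5 times their values under all alternatives run (22 to 24, 22 to 28, 22 to 30 and 24 to 31). From gd14 to gd16, where 0 were called, 2 were called with array quality weights, 4 with only the 6 arrays compared and 1 without gd14 replicate 10, gd16 replicate 9 and pnd2 replicate 3 together, and 0 to 1 with 1 array left out (1 without gd12 replicate 13 or pnd2 replicate 3). From gd16 to gd18, with 0, array quality weights gave 1, the 6 arrays alone gave 1, and leaving out 1 array gave 0 to 1 (1 without pnd2 replicate 3). From gd18 to pnd2, with 1, median centring, the mean of all probe sets, the 6 arrays alone and a threshold of 0.01 each gave 0, and leaving out 1 array gave 0 to 1 (0 without gd18 replicate 4 or 6). The 9 chain pairs that changed became 5 to 10 with 1 array left out, 5 without pnd2 replicate 2. With every combination of bright probe sets, an alternative chosen after seeing the data, 3 of them changed. The cause of these shifts was not tested. Of 78 called changes of single genes, 70 kept the call with any 1 array left out and 65 under every alternative but the stricter threshold, and none changed sign. No paired analysis was possible because replicate numbers are not shared between stages. The comparison of 6 arrays alone has no version for the chain pairs or the test over 5 stages, nor has a filter for the pairs. Signals of Col10a1, Col17a1, Col19a1, Col20a1, Col6a4 and Col6a5 were below the array median throughout, which limits what can be read from them.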
